A study of Mus musculus with 3 samples.

Results

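Committed oligodendrocyte precursors were described here in single-nucleus RNA libraries of the mouse hippocampus. A nucleus was taken as one when at least 2 of the 5 genes Gpr17, Enpp6, Bmp4, Neu4 and Rassf10, and at least 1 of the lineage genes Olig1, Olig2 and Sox10, had a UMI (unique molecular identifier, 1 counted RNA molecule). It also had to hold at most 1 UMI of the neuronal genes Slc17a7, Gad1, Gad2 and Plk5 together, and no UMI of Aqp4, Csf1r, Ranbp3l, Slc6a13 or Slc47a1. These conditions found 53 of 35322 barcodes, 12 in the control library, 17 in the doxorubicin library and 24 in the library of doxorubicin with ACY-1083. The UMIs of these genes chose the nuclei, so their levels in them are a description only.

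The study asked about HDAC6 inhibition and the cognitive impairment that follows doxorubicin, a chemotherapy drug that poisons topoisomerase II. ACY-1083 is an inhibitor of HDAC6, a largely cytoplasmic deacetylase that acts on tubulin. Each of the 3 groups (untreated control, doxorubicin, and doxorubicin with ACY-1083) was 1 library of nuclei released with Triton X-100 from the frozen, combined hippocampi of both sides of 4 mice, made with the 10x 3' chemistry. Strain, sex, age, dose and time were not given in the sources used here. With 1 pooled library per group there are no replicates, so no difference between groups could be tested, and every interval below is a 95% interval that covers counting error only.

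Oligodendrocyte precursor cells (OPCs) divide and carry the PDGF receptor Pdgfra and the proteoglycan NG2, the product of Cspg4. When a precursor commits to differentiation it leaves the cell cycle, loses these proteins and passes through a short stage marked by Gpr17, an orphan-type G protein-coupled receptor, before it makes myelin. Enpp6, a choline-specific phosphodiesterase, marks newly formed oligodendrocytes, and adult brains keep few cells in either state.

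The library of doxorubicin with ACY-1083 stood apart from the other pair before any result. It held 62151258 UMIs, against 19175447 in the control and 21458785 in the doxorubicin library. Its file header named Cell Ranger 5.0.0 and the other pair's named 4.0.0, while the submitters' processing notes name 6.0.0. In the committed precursors, the median log2 ratio of its level (CPM, UMIs per 1000000 UMIs of the class) to those of the doxorubicin library was −0.91 over genes with under 1 kb of intron and 1.46 over genes with more than 100 kb. For this library the comparisons therefore use ratios to another cell type of the same library, and its CPM and detection shares, where given, are not comparable with those of the other pair. Barcodes shared between pairs of libraries numbered 71 to 88, and none was a committed precursor.

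The committed precursors held 13732, 25405 and 81808 UMIs in all, in the order control, doxorubicin, doxorubicin with ACY-1083, which is the order of every group of 3 values here. Their median was 1063, 1125 and 3394 UMIs per nucleus, with ranges of 617 to 1883, 533 to 4966 and 1866 to 7034. The deepest doxorubicin nucleus alone held 19.5% of that library's committed-precursor UMIs. A doublet score marked 2 control nuclei, of 1405 and 1607 UMIs, and 1 nucleus with ACY-1083, of 7034 UMIs.

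Gpr17 and Neu4, which encodes a sialidase, were the usual pair that admitted a nucleus. That combination alone was present in 5, 10 and 8 nuclei. Gpr17 was detected in 11 of 12, 15 of 17 and 14 of 24 committed precursors, and Neu4 in 8, 16 and 22. Enpp6 was detected in 3, 5 and 15 nuclei, Bmp4, a secreted growth factor of the BMP family, in 5, 3 and 6, and Rassf10 in 2, 1 and 3. Across all libraries, 36 of the 53 nuclei met the rule with exactly 2 of the 5 genes and 17 with 3 or more.

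Most detections rested on 1 UMI. Gpr17 gave at most 2 UMIs in any control or doxorubicin nucleus and at most 4 with ACY-1083. Enpp6 gave at most 2, 4 and 9. In neuronal nuclei, which should lack these genes, Gpr17 had a UMI in 0.755%, 0.718% and 0.690% and Enpp6 in 0.378%, 0.383% and 1.05%, at median depths of 2361, 2373 and 7861.5 UMIs. These shares were far below the 91.7%, 88.2% and 58.3% (Gpr17) and 25.0%, 29.4% and 62.5% (Enpp6) in the committed precursors, though the rule itself required such UMIs. When nuclei of at least 1000 UMIs were thinned to 1000 UMIs, Enpp6 was found in 42.9%, 36.4% and 41.7% of 7, 11 and 24 committed precursors, though these nuclei had been chosen at full depth by genes that include Enpp6, so the thinned shares are no test of depth. Enpp6 lies at chr8:46986887-47096762 (GRCm38) with 103 kb of intron, Neu4 at chr1:94020451-94028334 with 3.25 kb.

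Just outside the rule stood nuclei that met every other condition with exactly 1 of the 5 genes, 43, 68 and 149 of them. Their median depth was 771, 896 and 1991 UMIs, against 936, 1079 and 3104 in nuclei with exactly 2. At least 2 OPC genes (of Pdgfra, Cspg4, C1ql1, Matn4 and Emid1) were present in 17, 32 and 58 of the nuclei just outside. Among all barcodes with at least 2 of the 5 genes, 36, 34 and 52 in number, 18, 12 and 13 were without a UMI of Olig1, Olig2 or Sox10, and 9, 6 and 16 exceeded the limit on neuronal UMIs.

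The rule itself required a lineage gene, and the stage markers that it did not use were mixed. Of the 53, 20 carried only OPC genes of the 5 above, 13 carried only genes of mature oligodendrocytes (Mog, Mag, Mobp, Opalin and Ermn), 7 carried both and 13 neither (6, 5 and 2 by library). Such genes also had UMIs in neuronal nuclei, Matn4 in 2.64%, 3.21% and 4.39% and Mobp in 5.24%, 5.12% and 6.57%, so 1 UMI places a nucleus weakly. At least 2 OPC genes were present in 18 nuclei and at least 2 mature genes in 4. Those 18 nuclei met the marker rule for OPCs as well as the rule for committed precursors, so the 2 stages were not fully separated by these genes. The 4 nuclei likewise reached the marker minimum for oligodendrocytes, and all were in the library with ACY-1083 and had an Enpp6 UMI. A single nucleus of these held 14 UMIs of the mature genes, and all 15 of its nearest neighbours in expression space carried such a gene. Neu4 was itself found in 35.0%, 41.5% and 34.6% of the OPCs defined for comparison (nuclei with at least 2 OPC genes that did not meet the committed-precursor rule, and so with at most 1 rule gene), whereas Gpr17 was found in 7.5%, 4.62% and 9.45% of them. Enpp6 was found in 1.10%, 2.73% and 11.1% of the oligodendrocytes defined for comparison (at least 2 mature genes and neither other rule met). Enpp6 without Gpr17 was present in 1, 0 and 9 committed precursors.

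**Figure D1:**
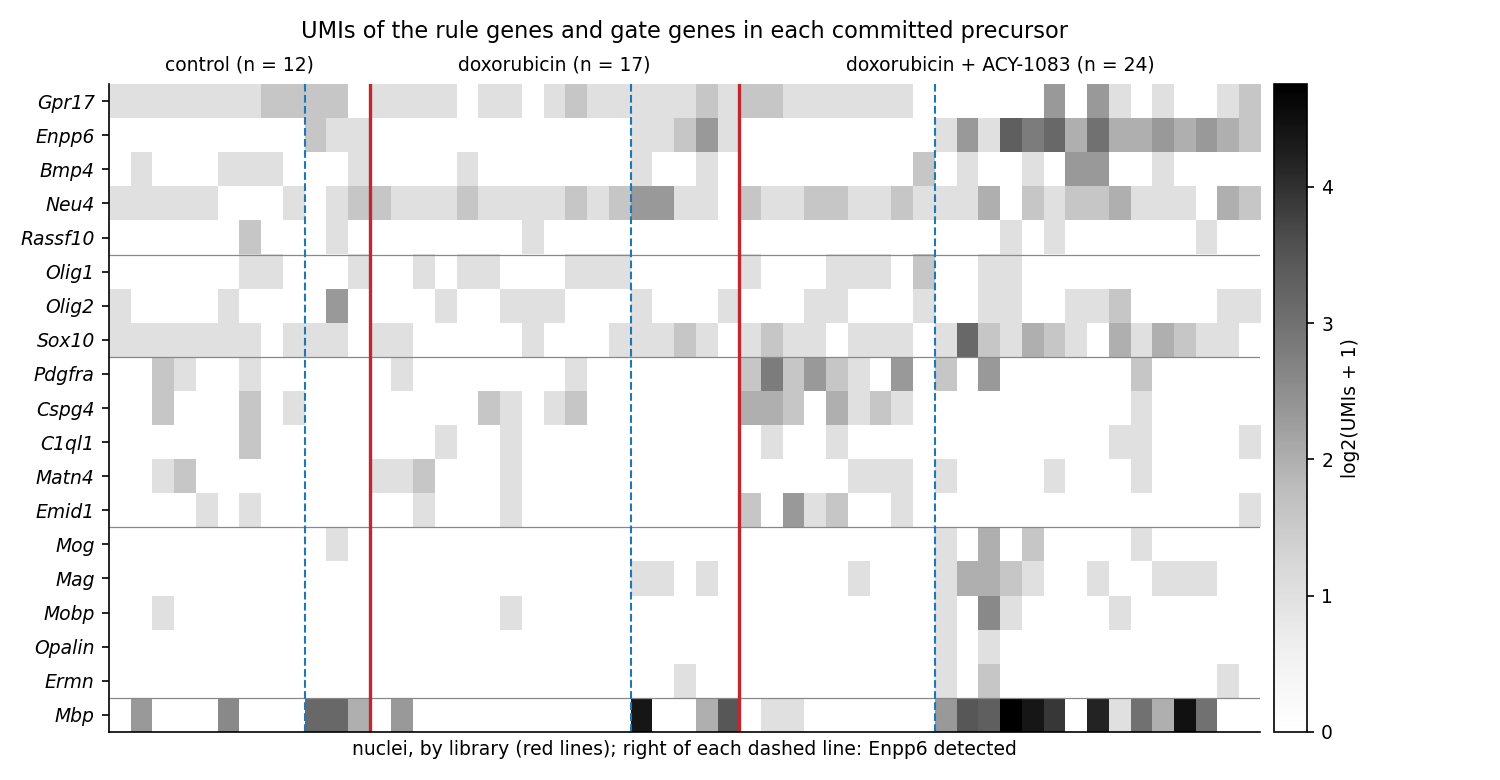
UMIs of 19 genes (rows) in each of the 53 committed precursor nuclei (columns), shaded by log2(UMIs + 1): the 5 rule genes, the lineage genes, the OPC genes, the mature oligodendrocyte genes, and Mbp. Red lines part the libraries (12, 17 and 24 nuclei), and nuclei right of each dashed line had an Enpp6 UMI (3, 5 and 15); these carry most of the Mbp UMIs, and the nuclei left of it most of the Pdgfra and Cspg4 UMIs.

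The nearest nuclei in expression space, found without the genes of the rule and of the comparison gates, placed the group in the lineage most clearly in the deepest library. A lineage gene was present in 37.8%, 31.0% and 81.9% of neighbours, against 5.24%, 5.39% and 10.3% of all nuclei, and 147 of 180, 189 of 255 and 145 of 360 neighbour places fell outside every class defined here. Among the 15 nearest neighbours of each committed precursor within its library, 63.3%, 60.8% and 61.7% carried an OPC gene, against 7.30%, 8.85% and 11.7% of all nuclei. The share with a mature oligodendrocyte gene was 23.3%, 28.6% and 40.6%, against 17.5%, 18.9% and 27.7% in the whole libraries. Other committed precursors filled 7 of 180, 15 of 255 and 124 of 360 neighbour places. In the deepest library committed precursors thus filled more of these places, but in every library most places held other nuclei. With ACY-1083, committed precursors with an Enpp6 UMI had 0 to 12 committed-precursor neighbours. Those without had 0 to 2, beside 4 to 8 neighbours that were OPCs as defined for comparison.

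Markers of other cell types were measured in the same nuclei. The neuron list gave 93, 159 and 125 UMIs, the astrocyte list 19, 30 and 23, the microglia list 2, 2 and 10 and the endothelial list 1, 2 and 2, and the fibroblast list gave 0 in every library. Per UMI, the neuron list was at 1.43 (1.10 to 1.86), 0.803 (0.668 to 0.958) and 0.573 (0.469 to 0.689) times its level in OPCs. A control nucleus, also marked by the doublet score, held 47 of the 93 control UMIs of that list, and a doxorubicin nucleus of 3401 UMIs, not marked, held 66 of 159. Of the 15 nearest neighbours of that doxorubicin nucleus, 10 had at least 2 UMIs of the neuronal rule genes and 0 had a lineage or an OPC gene, so its neighbours did not place it in the lineage. Another doxorubicin nucleus held 30 neuron-list UMIs, and a further doxorubicin nucleus 11 astrocyte-list UMIs. Each had 1 neighbour of 15 with a lineage gene. In yet another doxorubicin nucleus, 8 of 15 neighbours had at least 2 UMIs of the neuronal rule genes and 2 had a lineage gene. Without the nuclei that held 47 and 66 UMIs, the neuron list stood at 0.808 (0.565 to 1.12) and 0.544 (0.430 to 0.675) times OPCs in control and doxorubicin. The counts of genes past 2-fold library by library against OPCs and oligodendrocytes, and with doxorubicin against control, then stayed within 1.5 times their values below. The other doxorubicin nuclei just described, with 1 or 2 such lineage neighbours, were kept in this check, so it does not cover them. The nucleus with 2 had an Enpp6 UMI. Ttr, the choroid plexus transthyretin, made up 23, 89 and 83 of 23, 90 and 84 choroid UMIs. The part of these transcripts in the results below was not tested.

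Committed precursors were rare in every library. They made up 0.110% (0.0569 to 0.192), 0.139% (0.0811 to 0.223) and 0.197% (0.126 to 0.293) of barcodes by exact binomial intervals, and the 3 intervals overlapped. Of the oligodendrocyte lineage (committed precursors, OPCs and oligodendrocytes, 143, 192 and 648 nuclei) they made up 8.39% (4.41 to 14.2), 8.85% (5.24 to 13.8) and 3.70% (2.39 to 5.46). Of the precursors alone (52, 82 and 151 nuclei) the shares were 23.1% (12.5 to 36.8), 20.7% (12.6 to 31.1) and 15.9% (10.5 to 22.7). Control and doxorubicin shares lay within each other's intervals on each of these denominators.

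The order of the library with ACY-1083 depended on the denominator and on depth. It had the highest share of barcodes and the lowest share of the lineage, where 497 of its 648 nuclei were oligodendrocytes. After thinning to 1000 UMIs the rule found 5, 6 and 4 committed precursors, which were 0.0628%, 0.0677% and 0.0360% of the thinned barcodes. Of the thinned lineage they were 16.1% (5 of 31), 14.3% (6 of 42) and 1.37% (4 of 293). Its barcode share was thus the highest before and the lowest after thinning, on counts of 4 to 6 nuclei.

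**Figure D2:**
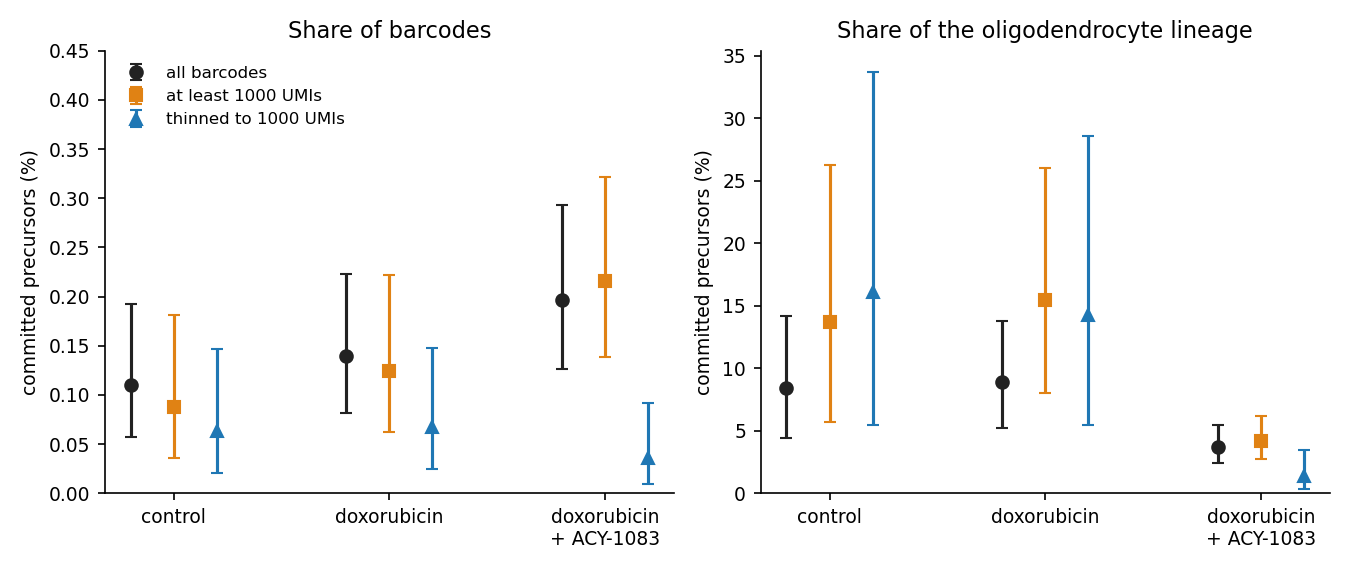
Committed precursors as a percentage of all barcodes (left) and of the oligodendrocyte lineage (right) by library, with exact 95% binomial intervals, for all barcodes, for nuclei of at least 1000 UMIs and after thinning to 1000 UMIs. Control and doxorubicin overlap in every setting, and the library with ACY-1083 has the lowest share of the lineage in each, 3.70% over all barcodes.

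Against OPCs of the same library, the committed precursors had more of the early myelin and committed-stage transcripts. OPCs were defined by at least 2 of the 5 OPC genes and at most 1 rule gene (40, 65 and 127 nuclei; 33605, 71192 and 329829 UMIs). Of 201 genes with at least 20 UMIs in the pair of sums in each library, 6 (2.99%) were past 2-fold higher in all 3 libraries, among them Mbp, Bcas1, Tmem108, Zeb2 and Map1b. Past 2-fold lower in all 3 were 2 genes (0.995%), Pdgfra and Matn4, both of which defined the OPCs and so had to be lower.

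Mbp, myelin basic protein, was the gene whose ratio to OPCs lay farthest above 1 in its weakest library. It gave 28, 37 and 141 UMIs, or 2039, 1456 and 1724 CPM. Its ratio to OPCs was 9.30 (4.18 to 26.5), 4.12 (2.43 to 7.19) and 4.66 (3.63 to 5.99). Single nuclei were uneven, with at most 8, 20 and 26 UMIs and none in 7 of 12, 13 of 17 and 10 of 24 nuclei.

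Bcas1, a known marker of oligodendrocytes that are beginning to myelinate (chr2:170346991-170427845), gave 19, 25 and 201 UMIs, or 1384, 984 and 2457 CPM. Its ratio was 6.36 (2.67 to 18.7), 3.18 (1.72 to 5.92) and 6.97 (5.53 to 8.86). It was found in 6, 8 and 22 nuclei, so with ACY-1083 nearly every nucleus carried it.

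Tmem108, a transmembrane protein (chr9:103482947-103761837), gave 22, 29 and 161 UMIs and stood at 8.47 (3.53 to 27.1), 3.37 (1.90 to 6.08) and 8.62 (6.54 to 11.5) times the OPC level. Zeb2, a transcription factor needed for oligodendrocyte differentiation, gave 24, 43 and 153 UMIs and ratios of 2.45, 2.41 and 2.37. Qk, the RNA-binding protein quaking that acts on myelin mRNAs, gave ratios of 2.08, 1.86 and 1.94, and the dynamin gene Dnm3 ratios of 2.33, 2.17 and 1.93. For these last genes the 3 libraries gave nearly equal ratios despite their unequal depth.

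The committed-stage list, 20 genes of the step between precursor and oligodendrocyte, was compared as a whole; 18 were in the files. Its sum was 96, 113 and 1361 UMIs, at 4.68 (3.30 to 6.75), 3.55 (2.67 to 4.75) and 7.41 (6.78 to 8.12) times the OPC level. It was also 4.14 (3.20 to 5.31), 3.49 (2.71 to 4.47) and 8.84 (8.24 to 9.49) times the oligodendrocyte level. The list was thus higher than in the stage before and the stage after in every library.

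To use genes too sparse for 1 library, the observed UMIs of the committed precursors were summed over the 3 libraries and divided by the UMIs expected at the OPC rate of each library. By this measure 12 of the 18 genes had at least 20 observed and expected UMIs together. All 12 were above the OPC level, 11 of them past 2-fold, with a median log2 ratio of 2.31, against −0.01 over all 2496 genes, of which 8.01% were past 2-fold higher. Against the oligodendrocyte level 11 of 12 were past 2-fold higher (14.6% of 2479 genes), and Plekha1 was past 2-fold lower with 11 UMIs, at 0.332. The genes below the minimum were Rras2, Cemip2, Casr, Prom1, Mycl and Kif19a, with 0 to 11 UMIs each.

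The member with the most UMIs was Frmd4a, a FERM-domain scaffold gene (chr2:4017717-4614043). It gave 15, 11 and 391 UMIs, and the sum of 417 was 20.4 times the OPC expectation and 9.24 times the oligodendrocyte expectation. Fyn, a kinase that signals in myelinating processes, gave 10, 11 and 168 UMIs, 7.19 and 19.1 times the same expectations. Tcf7l2, a Wnt-pathway transcription factor of newly forming oligodendrocytes, gave 111 UMIs, 8.48 and 13.1 times them. Tns3, a tensin, stood at 3.92 and 10.9, Itpr2, a calcium release channel, at 2.66 and 24.3, and Sirt2, a tubulin and protein deacetylase, at 3.81 and 3.90. Each of these genes was above both neighbouring stages, which is what separates them from Mbp.

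The library with ACY-1083 gave most of these UMIs, so the sums were repeated over control and doxorubicin alone. The committed-stage list then gave 209 UMIs against 52.2 expected at the OPC level, a ratio of 4.00 (3.48 to 4.59), and 3.75 (3.26 to 4.30) times the oligodendrocyte level. Only 6 of its 18 genes still had enough UMIs against OPCs, and all 6 were above the OPC level. Frmd4a gave 26 UMIs against 1.89 expected, or 13.8 (9.0 to 20.2), and Epb41l2, a membrane skeleton gene outside the list, 33 UMIs at 11.2 (7.68 to 15.7). Tcf7l2 gave 3.8 on 13 UMIs in place of 8.48, and Fyn 14.2 on 21 UMIs in place of 7.19.

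OPC genes that did not define the OPCs were below the OPC level and far above the oligodendrocyte level. Of 14 such genes 13 were measured over the 3 libraries, and 11 were lower than in OPCs, 1 past 2-fold (6.81% of all genes were), with a median log2 ratio of −0.43. All 13 measured against oligodendrocytes were past 2-fold higher, with a median of 3.46. Ptprz1, a receptor phosphatase of precursors (chr6:22875502-23052916), gave 15, 28 and 102 UMIs and stood at 0.509 (0.264 to 0.872), 0.510 (0.324 to 0.756) and 0.608 (0.487 to 0.747) times the OPC level. Its ratio to oligodendrocytes was 6.74 (3.15 to 14.1), 4.89 (2.78 to 8.62) and 12.7 (9.5 to 17.0).

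Cspg5, a chondroitin sulphate proteoglycan, behaved alike, with 11, 20 and 25 UMIs at 0.417 (0.191 to 0.766), 0.485 (0.280 to 0.767) and 0.521 (0.323 to 0.778) times the OPC level. Mir9-3hg, the host transcript of a microRNA, gave 3, 4 and 27 UMIs and ratios of 0.301, 0.283 and 0.522. Vcan, the proteoglycan versican, was nearer the OPC level, at 0.527, 0.669 and 0.832. The exceptions were Tnr, the matrix protein tenascin-R, and Sox6, a transcription factor that holds precursors undifferentiated. Tnr stood at 0.986, 1.09 and 2.03 and Sox6 at 1.5, 1.49 and 1.46 times the OPC level, and Sox6 was 92.8 times the oligodendrocyte expectation over the 3 libraries.

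Pcdh15, a protocadherin, showed how far 1 library could set a sum. It gave 157 UMIs against 285 expected at the OPC level over the 3 libraries, or 0.550, and 24 against 25.3, or 0.95, over control and doxorubicin. Grm5, a metabotropic glutamate receptor, went likewise from 0.423 to 0.8.

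**Figure D3:**
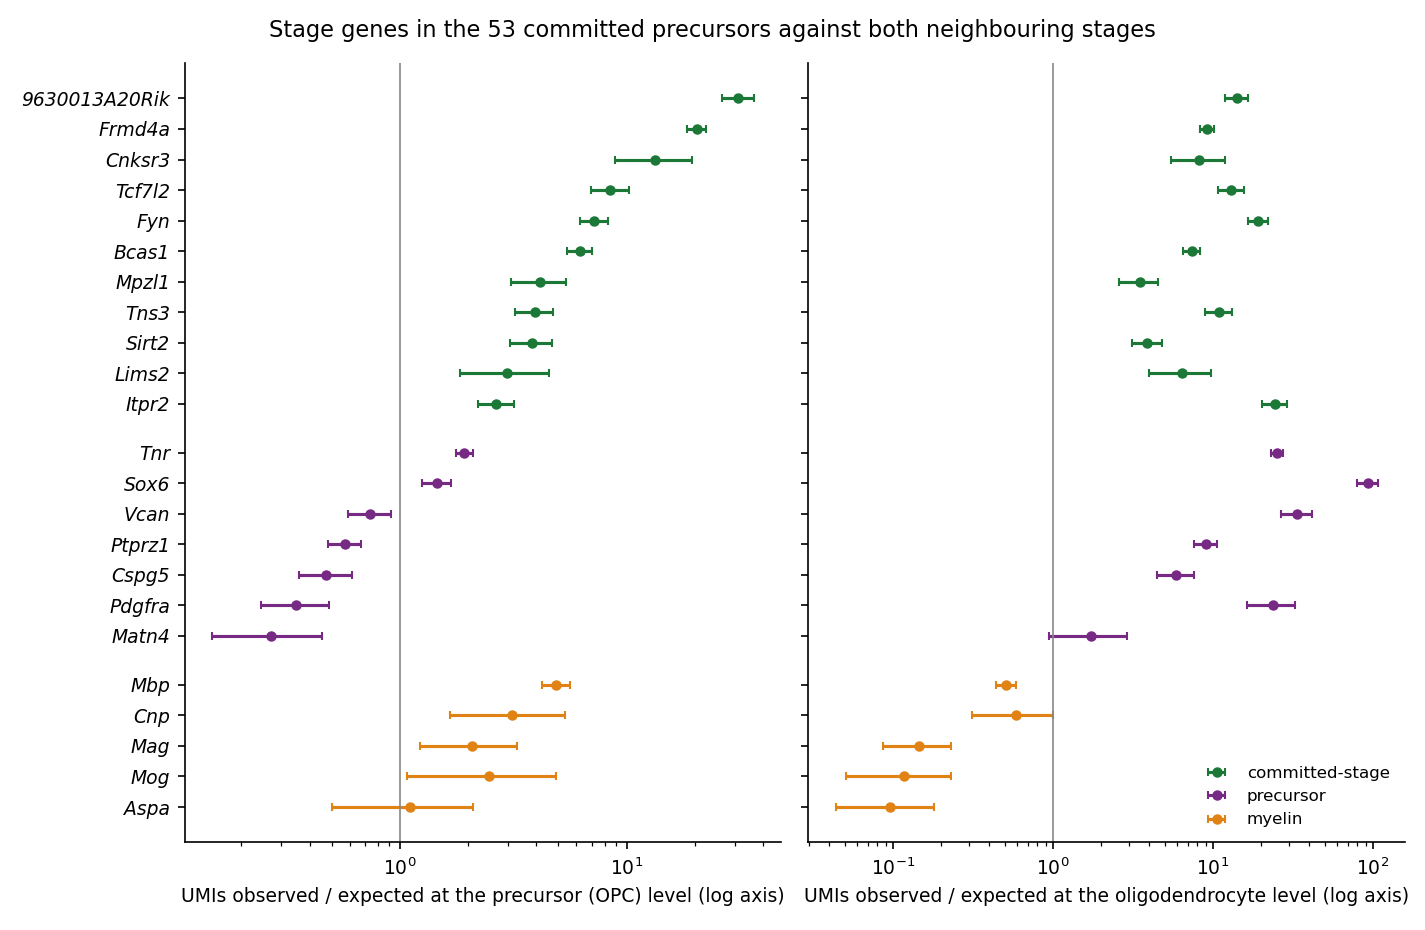
UMIs observed in the 53 committed precursors divided by those expected at the OPC level (left) and the oligodendrocyte level (right) of the same libraries, on log axes, with 95% Poisson intervals of the observed count. Committed-stage genes such as Frmd4a (20.4 and 9.24) lie above 1 on both sides, precursor genes such as Ptprz1 (0.570 and 9.06) only on the right, and myelin genes such as Mbp (4.90 and 0.511) only on the left; Pdgfra and Matn4 were among the genes that defined the OPCs.

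Against mature oligodendrocytes (91, 110 and 497 nuclei with at least 2 of Mog, Mag, Mobp, Opalin and Ermn), the committed precursors had less of nearly every late myelin gene. Of 808 genes, 31 (3.84%) were past 2-fold higher and 53 (6.56%) past 2-fold lower in all 3 libraries. The lower set held all 5 genes that defined the oligodendrocytes, along with Trf, Car2, Cldn11, Mal, Aspa, Anln, Cryab and Hapln2. Of 19 myelin genes, 16 were measured over the 3 libraries, 16 were below the oligodendrocyte level and 13 were past 2-fold lower (12.2% of all genes were), with a median log2 ratio of −2.14.

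The early and the late myelin genes differed in how far they were below. Mbp stood at 0.482 (0.312 to 0.695), 0.316 (0.218 to 0.436) and 0.626 (0.523 to 0.740) times the oligodendrocyte level. Aspa, the enzyme that releases acetate from N-acetylaspartate, gave 9 UMIs against 93.8 expected, or 0.0959, and Trf, transferrin, 10 against 91.7, or 0.109. Hapln2, a link protein at nodes of Ranvier, stood at 0.101 and Mal, a proteolipid of myelin membranes, at 0.136. The enzyme genes Ugt8a (0.475) and Fa2h (0.763) lay between these values and 1, as did Cnp (0.589), which over control and doxorubicin alone gave 1 UMI against 10.2 expected, or 0.0981 (0.00248 to 0.547). Over control and doxorubicin alone, 7 of 8 measured myelin genes were below the oligodendrocyte level, with the list at 0.338 (0.295 to 0.387) and Fa2h, on 12 UMIs, at 1.22.

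Genes outside the myelin list also separated the committed precursors from oligodendrocytes. Neat1, a nuclear noncoding RNA, gave 2, 9 and 30 UMIs, at 0.0912, 0.113 and 0.301 times the oligodendrocyte level. Ptprd, a receptor phosphatase, stood at 0.248, 0.206 and 0.197, Ank2, an ankyrin, at 0.171, 0.316 and 0.460, and Pex5l at 0.217, 0.108 and 0.183. Mast4, a kinase gene, gave 0, 2 and 25 UMIs while oligodendrocytes gave 97, 92 and 1806. On the higher side Bcas1 stood at 8.48, 9.62 and 7.07, Tmem108 at 13.4, 11.1 and 10.1, Tnr at 10.3, 8.19 and 28.1 and Brinp3 at 6.65, 6.21 and 11.1 times the oligodendrocyte level. Epn2, an endocytic adaptor, stood at 5.42, 5.87 and 3.48, and the adhesion gene Ntm at 4.78, 4.56 and 3.61.

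Transcription factors of the lineage were mixed. Of 9 measured against OPCs, 5 were higher, 2 past 2-fold, beside 1229 of all 2496 genes higher and 8.01% past 2-fold. Nkx2-2, which promotes differentiation, gave 13 UMIs, 2.31 times the OPC expectation and 6.34 times that of oligodendrocytes. Myrf, the regulator of myelin genes, gave 17 UMIs at 6.12 and 0.930, of which 3 came from control and doxorubicin. Both genes were just below the minimum of 20 observed and expected UMIs against OPCs and are not among the 9. St18 gave 105 UMIs at 4.65 and 0.479, all but 4 from the library with ACY-1083. Sox5 and Hes5, known inhibitors of differentiation, stood at 0.773 and 0.724 times the OPC level. Sox10, which the rule used, stood at 1.56, 0.934 and 1.03.

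Cytoskeletal genes, listed because HDAC6 acts on microtubules, were mostly above the OPC level, with 9 of 10 measured genes higher and 4 past 2-fold, where 1229 of all 2496 genes were higher and 8.01% past 2-fold. The list sum was 83, 117 and 409 UMIs at 2.36, 1.56 and 2.32 times OPCs, and 1.82 (1.57 to 2.09) over control and doxorubicin. Map1b, a microtubule-associated protein, gave 12, 17 and 85 UMIs at 2.66 (1.08 to 6.68), 2.18 (1.08 to 4.27) and 5.61 (4.00 to 7.94), and 1.94 (0.885 to 3.97) in doxorubicin without the nucleus richest in neuronal transcripts. Mapt, which encodes tau, gave 9, 18 and 78 at 3.58, 2.80 and 2.37. Tubb4a, the beta-tubulin of oligodendrocytes, gave 34 UMIs at 4.86 times the OPC and 0.636 times the oligodendrocyte expectation, of which 3 came from control and doxorubicin. Hdac6 itself gave 2, 1 and 0 UMIs, too few for a ratio in these nuclei; the 0 of 81808 UMIs with ACY-1083 allow up to 45.1 CPM by an exact Poisson interval.

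Adhesion and guidance genes were divided. Of 17 measured, 11 were above the OPC level, 5 past 2-fold, and 3 were past 2-fold lower, beside 8.01% and 6.81% of all 2496 genes. Nfasc, the cell adhesion protein of the paranode, gave 11, 10 and 133 UMIs at 8.04, 3.46 and 8.90 times OPCs. Ephb1, an ephrin receptor, gave 32 UMIs at 8.60, of which 1 came from control and doxorubicin. The 3 lower genes were the guidance receptors Dcc (62 UMIs at 0.436) and Robo1 (26 at 0.397) and the semaphorin Sema6a (8 at 0.330). Dcc and Robo1 gave 1 and 3 UMIs in control and doxorubicin, so their values rest on the library with ACY-1083.

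Proliferation genes gave few UMIs. The cell cycle list gave 5, 15 and 9 UMIs, at 0.928, 0.797 and 0.428 (0.181 to 0.809) times OPCs. Top2a, the topoisomerase II isoform of dividing cells and a target of doxorubicin, gave 0 UMIs in the committed precursors of each library against 5.83 expected, a ratio of 0 (0 to 0.633), where OPCs gave 0, 8 and 12. Glutamate receptor and channel genes were at 1.17, 1.33 and 0.773 times OPCs as a list. Over the 3 libraries 12 of 15 measured genes were below the OPC level, where 1267 of all 2496 genes were. Over control and doxorubicin alone 1 of 4 was below it. Gria2, an AMPA receptor subunit, stood at 1.56 (1.29 to 1.88) in the doxorubicin library and 0.993 (0.827 to 1.18) with ACY-1083.

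The committed precursors were uneven among themselves, and a split by Enpp6 showed it. This split was chosen after the values were seen, and it is a description without a test. The 23 nuclei with an Enpp6 UMI (3, 5 and 15) were deeper than the 30 without (9, 12 and 9), with medians of 1696, 1304 and 3734 against 862, 1059.5 and 2800 UMIs, and held 58.7% of all UMIs of the group. They held 91.6% of the 1570 committed-stage UMIs and 83.9% of the myelin UMIs. A mature oligodendrocyte gene was present in 17 of the 23 and in 3 of the 30, and an OPC gene in 6 of the 23 and in 21 of the 30.

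The list difference was present inside each library. Committed-stage UMIs were 66 against 30, 91 against 22 and 1281 against 80 in nuclei with and without Enpp6, and CPM ratios were 3.83 (2.47 to 6.16), 5.79 (3.67 to 9.86) and 7.51 (6.03 to 9.60). The myelin list gave ratios of 3.36 (2.11 to 5.55), 3.07 (2.12 to 4.56) and 6.82 (4.56 to 11.1). The list of OPC genes gave 0.428 (0.221 to 0.742), 0.287 (0.170 to 0.449) and 0.562 (0.512 to 0.618). The Enpp6 side held only 3 control and 5 doxorubicin nuclei. On it, 1 nucleus held 36 of the 66 control and 1 nucleus 24 of the 91 doxorubicin committed-stage UMIs. A single doxorubicin nucleus held 46 of the 91 myelin-list UMIs of that side. The ratios without these nuclei were not computed. CPM corrects for the summed UMIs of each side but not for the greater depth of the single nuclei with Enpp6, on which its detection also depends; the part of depth in the split was not tested.

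Frmd4a and St18 were nearly confined to the Enpp6 side in these libraries. Frmd4a gave 412 UMIs with and 5 without Enpp6, and in the control library 15 against 0, at least 8.78-fold higher by a floor of 3 counts. St18 gave 104 against 1, with 101 of them in all 15 Enpp6 nuclei of the library with ACY-1083 and 0 in its other 9, at least 15.9-fold higher. Mbp gave 191 against 15 UMIs, in 18 of 23 and 5 of 30 nuclei, at ratios of 3.60 (1.6 to 9.30), 10.6 (4.18 to 45.7) and 26.3 (8.91 to 274). Bcas1 gave 220 against 25, at 3.65 (1.35 to 12.2), 9.16 (3.14 to 54.5) and 5.31 (3.27 to 9.75).

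Several precursor genes lay on the other side. Cspg4 gave 1 UMI with and 26 without Enpp6, and Pdgfra 8 and 27. Ptprz1 gave 38 and 107, at ratios of 0.325 (0.0296 to 1.19), 0.196 (0.033 to 0.56) and 0.227 (0.144 to 0.347). Tnr of the same list lay on the Enpp6 side, with 409 and 128 UMIs at ratios of 1.14, 1.12 and 1.68 (1.36 to 2.10), and Sox6 on neither, at 0.585, 1.04 and 0.815. Gpr17 (23 and 32 UMIs) and Neu4 (36 and 35) were on both sides. The neuron list was also lower with Enpp6, at 0.294 (0.146 to 0.516), 0.296 (0.185 to 0.443) and 0.780 (0.539 to 1.15). The nuclei with 47 and 66 neuron-list UMIs had no Enpp6 UMI. Nuclei with Enpp6 held 50.5% of the UMIs of the OPC gene list, beside 58.7% of all UMIs. The pooled values that place the committed precursors between OPCs and oligodendrocytes thus average nuclei that differ in OPC and early myelin transcripts. The part of neuronal transcripts in the split was not tested.

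**Figure D4:**
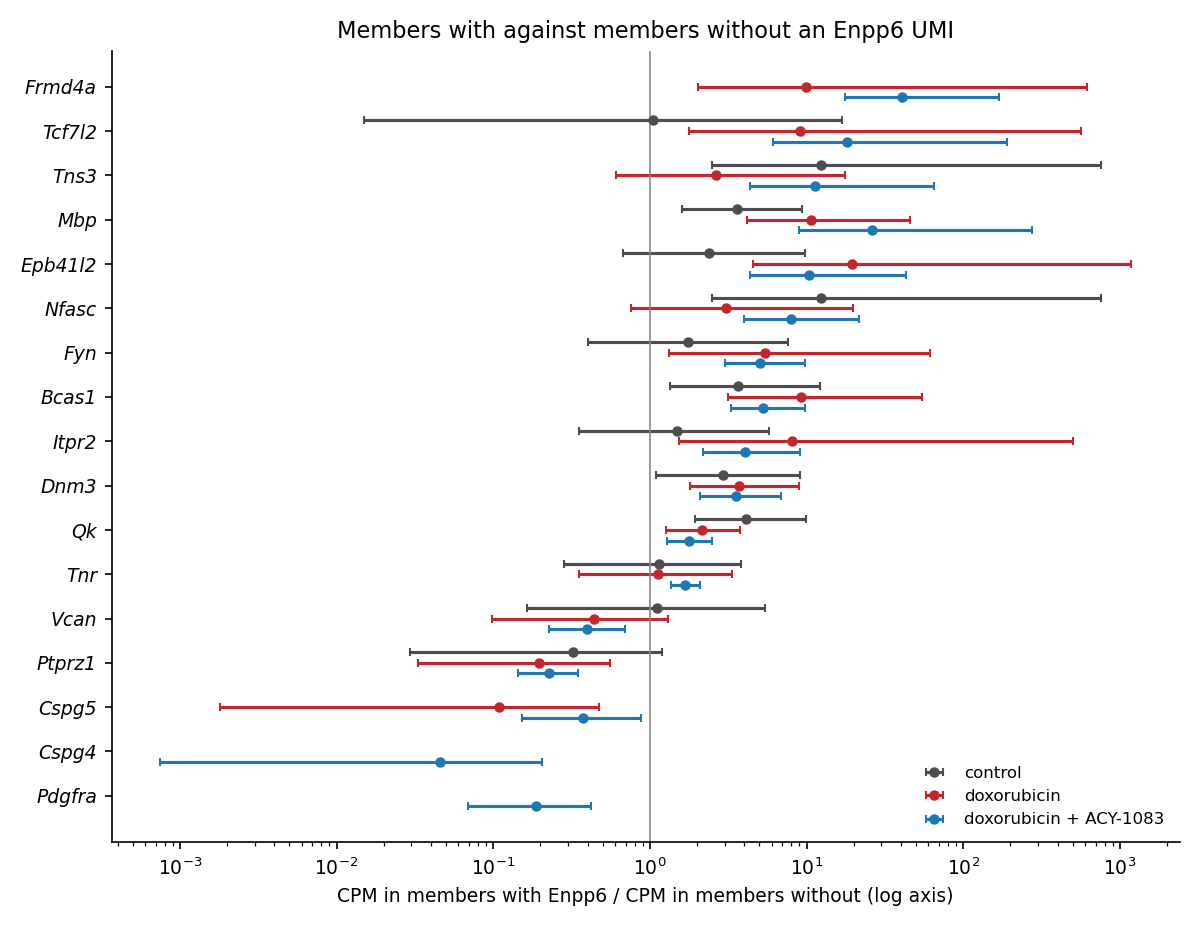
CPM in committed precursors with an Enpp6 UMI divided by CPM in those without, per library, on a log axis with 95% intervals of the counts; a library with 0 UMIs on one side is not drawn for that gene. Frmd4a, Mbp and Bcas1 lie above 1 and Ptprz1 below 1 in each library drawn.

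Doxorubicin and control, whose headers name the same Cell Ranger version, were compared with 12 and 17 nuclei. Of 154 genes with at least 20 UMIs in both sums together, 8 (5.19%) were past 2-fold higher and 9 (5.84%) past 2-fold lower with doxorubicin. In OPCs the shares were 2.81% and 4.08% of 784 genes, and in oligodendrocytes 4.67% and 4.39% of 2185. The shares in the committed precursors were thus near those in oligodendrocytes and above those in OPCs, at much lower counts. The median log2 ratio was −0.09, and other ways of scaling moved the split of 8 higher and 9 lower to 12 and 6 (median of ratios) or 9 and 6 (total without Malat1 and mitochondrial genes).

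Ttr was the gene whose interval lay farthest above 1. It gave 0 to 5 UMIs per control nucleus and 1 to 9 per doxorubicin nucleus, 23 and 89 in all, or 1675 and 3503 CPM, a ratio of 2.06 (1.31 to 3.47). The ratio was 1.36 in OPCs and 2.35 in oligodendrocytes, so it lay above 1 in all 3 classes. Csmd3, a large transmembrane gene, gave 5 and 30 UMIs, a ratio of 3.0 (1.25 to 10.7), against 0.865 in OPCs and 0.895 in oligodendrocytes. Among nuclei with at least 3 rule genes the intervals of both included 1, with Ttr at 1.5 (0.638 to 4.40) and Csmd3 at 3.12 (0.590 to 195), and after thinning Ttr stood at 4.06 (1.84 to 12.5). Malat1, a nuclear noncoding RNA, stood at 1.20 (1.14 to 1.26), but at 0.996 among the nuclei with at least 3 rule genes. Snrnp70, a splicing factor, stood at 1.78 (1.04 to 3.32), and at 1.47 (0.851 to 2.80) after nuclei were filtered for quality and doublets.

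On the lower side, 4 of the genes eligible to be named had intervals that ended below 1, and none kept this under every alternative. Cdc37l1, a co-chaperone gene, gave 27 and 24 UMIs, a ratio of 0.482 (0.265 to 0.865). Sirt2 gave 18 and 14, at 0.424 (0.194 to 0.895), Frmd4a 15 and 11, at 0.401 (0.165 to 0.924), and Gjc3, a glial connexin, 39 and 42, at 0.582 (0.367 to 0.924). In OPCs the same genes stood at 0.879, 1.42, 0.661 and 1.21, and in oligodendrocytes at 1.0, 1.04, 0.647 and 1.26. None of these differences between cell types was tested. After thinning to 1000 UMIs the intervals of all 4 included 1, at 0.680 (0.307 to 1.52), 0.470 (0.162 to 1.26), 0.435 (0.124 to 1.33) and 0.582 (0.306 to 1.10) for Cdc37l1, Sirt2, Frmd4a and Gjc3. A single control nucleus held 9 of the 15 Frmd4a UMIs, and without it the ratio was 0.838 (0.294 to 2.86). Without the control nucleus that held 8 of the 18 Sirt2 UMIs, that ratio was 0.654 (0.274 to 1.67).

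The committed-stage list was lower with doxorubicin, but the size depended on single nuclei. The sum was 96 UMIs in control and 113 with doxorubicin, a ratio of 0.636 (0.480 to 0.844), and all 6 measured genes were below 1, 4 of them past 2-fold, with a median log2 ratio of −1.16. A single control nucleus held 36 of the 96 UMIs. Without it the ratio was 0.889 (0.647 to 1.24). Without the doxorubicin nucleus that held 24 of the 113 UMIs, the ratio was 0.524 (0.388 to 0.706). In nuclei without Enpp6 the sum was 30 and 22 UMIs, a ratio of 0.432 (0.236 to 0.770), and in OPCs and oligodendrocytes the list stood at 0.837 (0.588 to 1.21) and 0.755 (0.605 to 0.939).

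For myelin and precursor genes the intervals over all nuclei included 1. The myelin list stood at 0.875 (0.661 to 1.17), with Mbp at 0.711 (0.425 to 1.21). A single doxorubicin nucleus held 46 of the 133 myelin-list UMIs, and without it the list stood at 0.713 (0.521 to 0.976). Without the control nucleus that held 26 of 82, the list stood at 1.12 (0.818 to 1.57). The list of OPC genes stood at 0.919 (0.692 to 1.24), with Ptprz1 at 0.994 and Cspg5 at 0.964. At 12 against 17 nuclei, changes inside these intervals were not detectable.

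**Figure D5:**
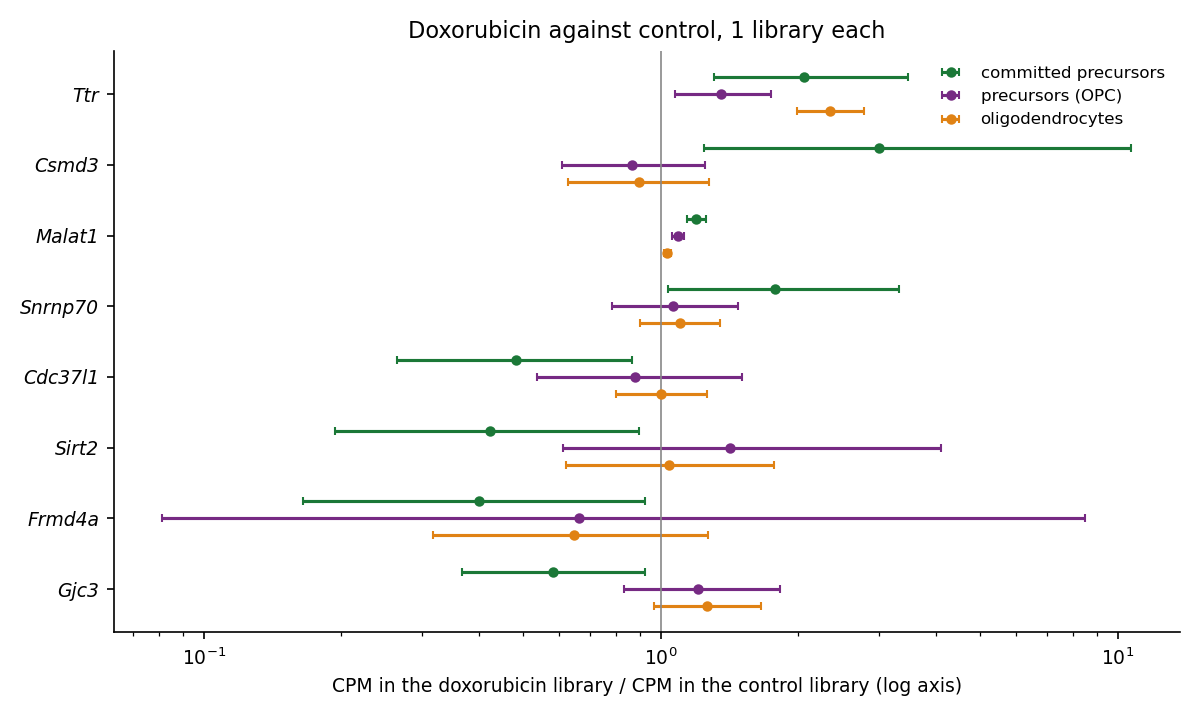
CPM with doxorubicin divided by CPM in control for the named genes, in committed precursors, OPCs and oligodendrocytes, on a log axis with 95% intervals of the counts, 1 library per group. Ttr lies above 1 in committed precursors (2.06) and oligodendrocytes (2.35), and Sirt2 lies at 0.424 in committed precursors, 1.42 in OPCs and 1.04 in oligodendrocytes, a difference that was not tested.

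For doxorubicin with ACY-1083 the ratio to OPCs of the same library was set beside that in the doxorubicin library. Of 665 genes, 11.4% had a ratio past 2-fold higher and 10.1% past 2-fold lower. Several genes had like ratios in both: Mbp 4.12 and 4.66, Zeb2 2.41 and 2.37, Cspg5 0.485 and 0.521, and Ptprz1 0.510 and 0.608. Other named genes had a higher ratio with ACY-1083. Bcas1 stood at 3.18 (1.72 to 5.92) and 6.97 (5.53 to 8.86), Tmem108 at 3.37 (1.90 to 6.08) and 8.62 (6.54 to 11.5), and Sirt2 at 1.81 (0.844 to 3.65) and 4.5 (3.03 to 6.71). Nuclei with Enpp6 made up 15 of 24 committed precursors with ACY-1083 and 5 of 17 with doxorubicin, and the treatment, the depth and the software version cannot be told apart here.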

How the data were processed

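The 3 single-nucleus libraries were analysed from the deposited raw UMI counts, which the authors made with Cell Ranger 6.0.0 per the submitters' processing notes and with 4.0.0 or 5.0.0 per the file headers; whether intronic reads were counted was not given in the sources used here. All deposited barcodes (at least 500 UMIs) were used. The nuclei and gene lists were chosen with earlier results of these data known. UMIs were summed per class and library, divided by the total to give CPM, and compared as ratios with 0.5 counts added; intervals are exact (Clopper-Pearson, or Poisson for observed over expected). Past 2-fold was the call. Some genes that met the naming rule are not reported here. Genes were named by the interval bound nearest to 1, leaving out mitochondrial, ribosomal and predicted genes and those of the gates. Scrublet's automatic threshold marked only 6, 2 and 0 barcodes, so a score of 0.25 was set by hand and doublets were removed only in an alternative. Gene positions are from GENCODE (GRCm38), which matched 32158 of 32285 genes. Sums over libraries, with and without the one with ACY-1083, the split by Enpp6, and leaving out single nuclei (the deepest, those richest in neuronal transcripts, or the top one for a gene or list) were added after the data were seen. Python 3.11.15, numpy 2.4.6, scipy 1.17.1 and scanpy 1.11.5 were used, and the scripts were tested on simulated data.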

Additional observations from a re-analysis of the deposited data

How the results depend on the processing

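No paired analysis was possible because each group is 1 library. Thinning to 1000 UMIs moved the barcode share to 0.0677% with doxorubicin and 0.0360% with ACY-1083, and the lineage share to 16.1%, 14.3% and 1.37% (control, doxorubicin, with ACY-1083); keeping nuclei of at least 1000 UMIs gave a lineage share of 15.5% with doxorubicin. The number of genes past 2-fold followed the count minimum. With minimums of 10, 50 and 1 UMIs, it was 17, 1 and 174 higher and 6, 0 and 70 lower against OPCs. Against oligodendrocytes it was 67, 4 and 545 higher and 83, 24 and 112 lower. For doxorubicin against control it was 68, 1 and 1368 higher and 55, 1 and 2175 lower. With 5 counts added in place of 0.5 it was 0 lower against OPCs, 51 higher and 7 lower against oligodendrocytes, and 0 higher with doxorubicin, where the medians of all genes also moved, by 0.22, 0.66 and −0.18 on the log2 scale. For doxorubicin against control, the higher count was 5 after the quality and doublet filter, 3 after thinning, 3 without the deepest doxorubicin nucleus and 0 with at least 3 rule genes; the lower count was 0 after thinning and 4 with at least 3 rule genes. No other alternative moved a share beyond its interval or a count by more than 1.5 times. The shares of control and doxorubicin stayed within each other's intervals after thinning as well.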

Other observations

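Several gene groups that bear on the treatment had few UMIs in the committed precursors. The list of p53 target genes gave 7, 13 and 40 UMIs (control, doxorubicin, with ACY-1083) and a doxorubicin-to-control ratio of 0.973 (0.372 to 2.97). The topoisomerase and DNA repair list gave 17, 33 and 90 UMIs, and the histone deacetylase list 4, 11 and 38. Over the 3 libraries, Hdac8 gave 13 UMIs against 32.1 expected at the OPC level, or 0.405, and the other measured gene of that list was above the OPC level. The whole list had only 12.1 expected UMIs over control and doxorubicin, so most of the Hdac8 expectation came from the library with ACY-1083. The list stood at 0.816 (0.179 to 2.44), 1.65 (0.698 to 3.59) and 0.598 (0.409 to 0.834) times OPCs. Immediate early genes gave 3, 9 and 5 UMIs.

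For housekeeping groups most genes lay below the OPC level, and the list intervals included 1 in control. Ribosomal protein genes gave 172, 310 and 467 UMIs, at 0.884, 0.848 and 0.891 times OPCs, with 39 of 55 genes lower, and genes of oxidative phosphorylation gave 118, 212 and 330, at 1.0, 0.766 and 0.809, with 18 of 27 lower, where 1267 of all 2496 genes were lower. Cholesterol synthesis genes, which are strongly used in myelination, gave 12, 20 and 34 UMIs at 1.04, 1.35 and 1.03. Of the signalling lists, Notch, BMP and Wnt genes gave 22, 46 and 163 UMIs at 1.24, 1.44 and 1.86 times OPCs. Of the 6 genes of this list measured over the 3 libraries, 3 were higher and 3 lower than in OPCs. Smad7, an inhibitor of BMP and TGF-beta signalling, gave 12 UMIs at 2.32, below the minimum of 20 observed and expected UMIs.

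The UMIs of 2 genes sat in few nuclei. The noncoding RNA gene 9630013A20Rik gave 154 UMIs against 4.96 expected at the OPC level, but 1 nucleus with ACY-1083 held 63 of that library's 148. Mbp had 20 of its 37 doxorubicin UMIs in 1 nucleus.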
